A study of Mus musculus with 12 samples.

Results

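Most of the genes described here encode nuclear subunits of respiratory complexes II, III, IV and V or the carrier cytochrome c. They were chosen by symbol alone, as every row of the deposited expression table that is named Sdha to Sdhd, Cyc1 or Cycs, or that begins with Uqcr, Cox4 to Cox8 or Atp5. The rule found 49 genes among 23997 rows, with 4 in complex II, 9 in complex III, 1 for cytochrome c, 18 in complex IV and 17 under the complex V prefix. Cox7a2l, a supercomplex factor, and Atp5s and Atp5sl, now named Dmac2l and Dmac2, entered by their prefix. RNA was sequenced from mouse cumulus cells, the somatic cells that enclose the oocyte inside the follicle. The 12 libraries formed 4 groups of 3, which were ClpP-/- (KO) and wild-type (WT) females of strain C57BL/6J at 3 months and at 6 months of age. All mice of the 4 groups were primed with pregnant mare serum gonadotropin (5 IU), and cells were taken after 44 h according to the treatment protocol or 48 h according to the series' design text. Each library pooled 100 cumulus cells of 1 mouse, and the labels give the cells a passage of P1. ClpP is the peptidase of the mitochondrial matrix protease ClpXP. The labels give no further detail of the allele, and age is compared between different animals.

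Complex II oxidises succinate and passes electrons to ubiquinone, complex III moves them from ubiquinol to cytochrome c, and complex IV hands them to oxygen. Complexes III and IV pump protons, and complex V, the ATP synthase, lets protons flow back to make ATP. Most of these subunits come from nuclear genes, while the catalytic core of complex IV, the cytochrome b of complex III and parts of the proton channel of complex V are encoded in mitochondrial DNA. Cumulus cells feed pyruvate and other metabolites to the oocyte, which relies on oxidative phosphorylation. The table held 0 mitochondrially encoded symbols, so only the nuclear partners were measured.

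Expression is given in FPKM, fragments per kilobase of transcript scaled to the total of mapped fragments, which is a level per length. Levels of different genes can be compared only roughly, since genes with long and with short coding sequences moved apart from library to library, as described below. From 9335 to 10861 genes a library were at 1 FPKM or more, and relative depth, read from the spacing of the lowest values, was 0.640 to 1.0. Clpp was 88.2 to 146 FPKM in the libraries labelled WT and 0.769 to 6.63 FPKM in those labelled KO. The cumulus marker Inha was at 2419 to 6334 FPKM in all 12. Library 3 of each group carried more RNA of markers of other ovarian cell types than libraries 1 and 2. Its score, the mean log2 deviation of 3 marker lists (blood and leukocyte, theca and stromal, endothelial) from the 12-library mean, was 1.02, 2.61, 1.79 and 2.63 in 3-month WT, 3-month KO, 6-month WT and 6-month KO, against at most 0.189 in the other 8 libraries. Small RNA entries took 25.7% of the FPKM sum in 3-month WT library 1 and at most 6.82% in all others except KO library 3, where they took 32.0% at 3 months and 37.5% at 6 months. Their part in the results below was not tested beyond the alternative values given.

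The subunit genes were among the most abundant transcripts of these cells. Together the 49 genes summed to between 32352 and 64069 FPKM per library, or 5.10% to 7.50% of the FPKM sum without small RNA. A mean over the 12 libraries of at least 100 FPKM was reached by 39 of the 49 and of at least 1000 FPKM by 22. The test took 46 of them, those with at least 1 FPKM in at least 3 libraries. The 3 left out were Cox7b2, Cox8b and Cox8c, the tissue isoforms of complex IV subunits that stood at 0 or near it almost throughout.

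**Figure D1:**
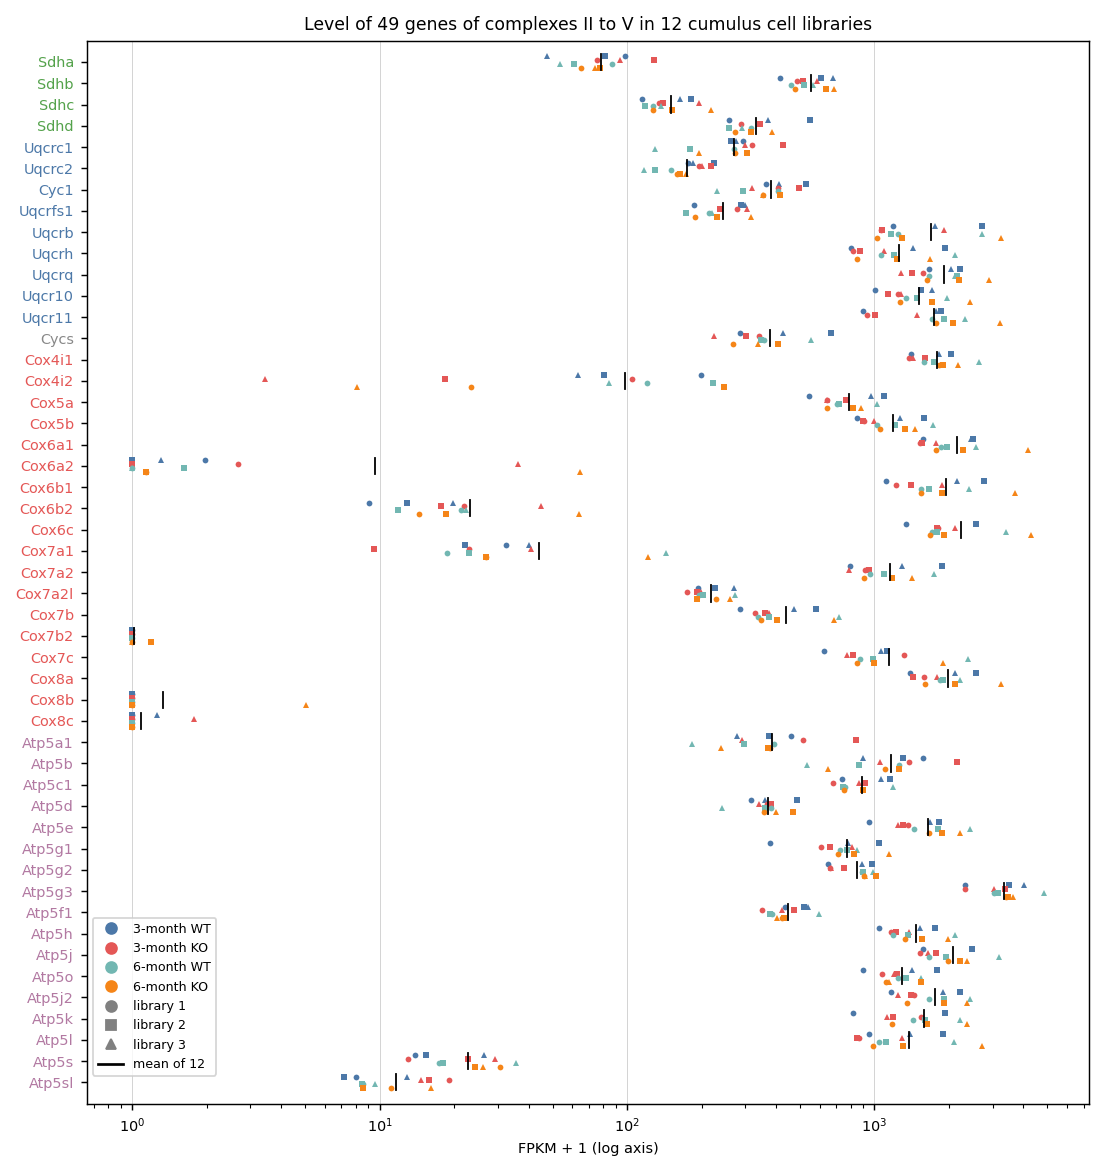
Level of all 49 genes in the 12 libraries as FPKM + 1 on a log axis, with colour for group, marker shape for library number and a black tick for the mean of 12. The mean of 39 genes is at least 100 FPKM, and the most spread-out rows are the isoforms Cox4i2, Cox6a2, Cox6b2, Cox7a1 and Cox8b.

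Levels per length differed more between subunits of a complex than between groups. In complex II the mean over 12 libraries ran from 77.6 FPKM for Sdha, the flavoprotein that holds the succinate site, to 553 FPKM for Sdhb, the iron-sulfur subunit. In complex III it ran from 174 FPKM for the core protein gene Uqcrc2 to 1902 FPKM for the small subunit Uqcrq. In complex IV the lowest tested gene was Cox6a2 with 8.58 FPKM and the highest Cox6c with 2246 FPKM. Under the complex V prefix the range was 10.7 FPKM for Atp5sl to 3341 FPKM for Atp5g3, which encodes subunit c of the membrane ring and ranked 11 in the whole table. Cycs, the mobile carrier between complexes III and IV, averaged 376 FPKM.

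How much a gene varied over the 12 libraries also differed. The highest library was only 1.57 times the lowest for Cox7a2l, a factor that joins complexes III and IV into supercomplexes, and for Atp5g2, and 1.65 times for Sdhb. It was 4.03 times for Atp5b and 4.66 times for Atp5a1, the catalytic beta and the alpha subunit of the ATP synthase head. Atp5b and Atp5a1 moved together from library to library, since the ratio of their FPKM values stayed between 2.55 and 3.63. The ratio of Cox5b to Cox5a, whose products sit side by side in complex IV, stayed between 1.17 and 1.69. The ratio of Sdhb to Sdha, by contrast, ran from 4.04 to 14.7, and the ratio of Atp5b to Atp5e, the epsilon subunit of the same head, from 0.220 to 1.65.

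**Figure D2:**
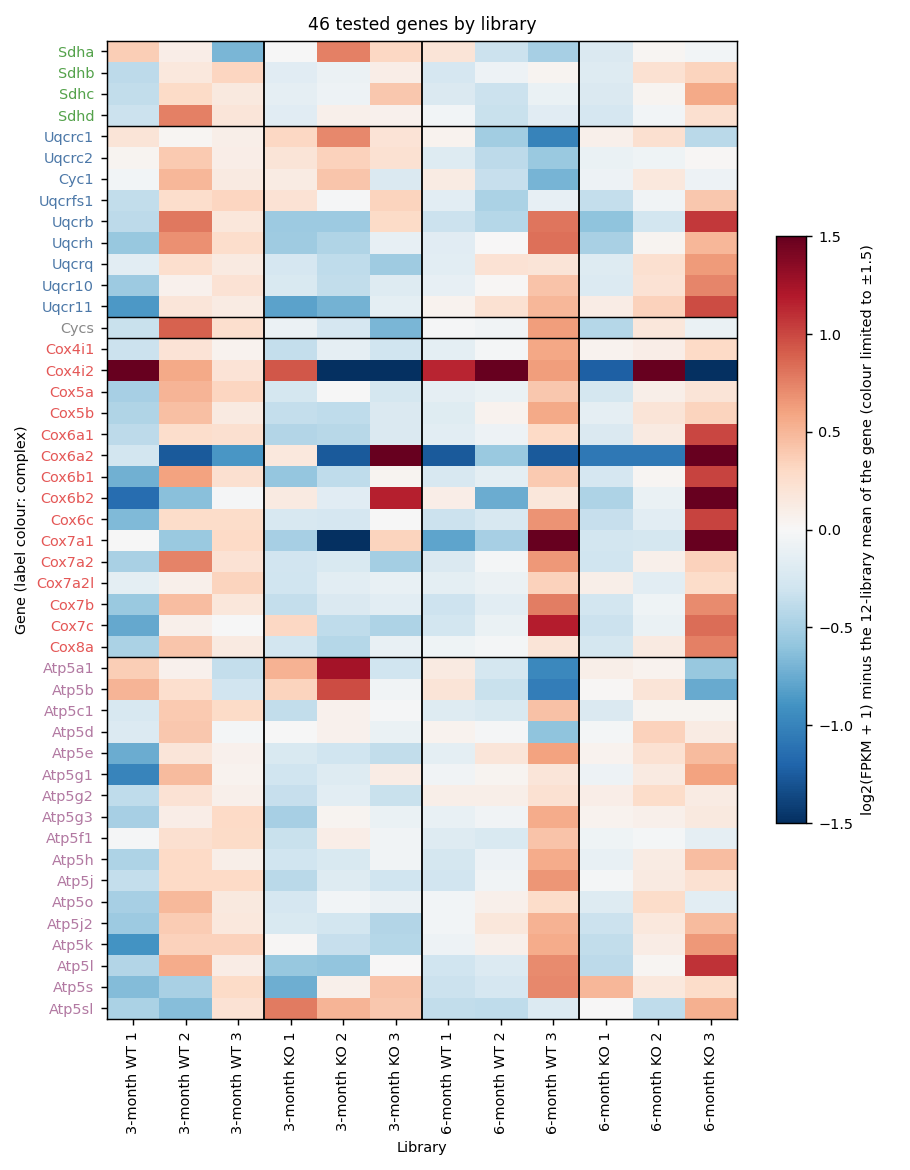
Each of the 46 tested genes (rows, label colour by complex) in each library (columns), as log2(FPKM + 1) minus the gene's mean over 12 libraries, with colour limited to ±1.5. 3-month WT library 1 is blue in most rows, while library 3 of both 6-month groups is red in most rows, with Uqcrc1, Atp5a1 and Atp5b blue.

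No gene of complexes II to V passed the test in any comparison. With limma across 11196 rows and an adjusted p threshold of 0.05, 0 of 46 were called for KO against WT at 3 months, where 0.00893% of all rows were called. At 6 months it was 0 of 46 (0.0268% of all rows), and for the mean of both ages 0 of 46 (0.0179%). Likewise 0 of 46 were called for 6 against 3 months in WT (0.00893%), 0 of 46 in KO (0.0179%) and 0 of 46 for the interaction of genotype and age (0.00893%). At an unadjusted limma p under 0.05 the counts in that order were 1, 0, 2, 1, 3 and 0 of 46, where 6.8%, 1.22%, 5.96%, 7.44%, 6.48% and 2% of all rows passed. These counts moved with the setting. For KO against WT at 3 months the count was 10 of 46 without 3-month WT library 1 (5.63% of all rows), and for age in KO it was 8 of 46 after rescaling each library without its small RNA entries (5.28%) and 10 of 46 with the replicate block (9.54%). Over the alternatives it ran from 0 to 10 for KO against WT at 3 months, 0 to 4 at 6 months, 1 to 4 averaged over both ages, 0 to 3 for age in WT, 1 to 10 for age in KO and 0 to 1 for the interaction. Each library is 1 mouse, so these p-values rest on the spread between mice within groups of 3, pooled over all groups.

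A missed threshold does not show that a gene was alike in 2 groups, so the intervals are given. The median half-width of the 95% limma intervals was 0.63 on the log2 scale for a comparison of 2 groups. The whole interval lay within a log2 difference of 1 in either direction for 28 of 46 genes in the genotype comparison at 3 months, for 31 at 6 months and for 41 in the mean of both ages. For age it did so for 33 of 46 genes in WT and 17 in KO, and for the interaction for 8. Log2 differences are on the scale of log2(FPKM + 1), which understates the change of low genes. In pooled cells, fewer cells with a transcript and less of it per cell cannot be told apart.

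**Figure D3:**
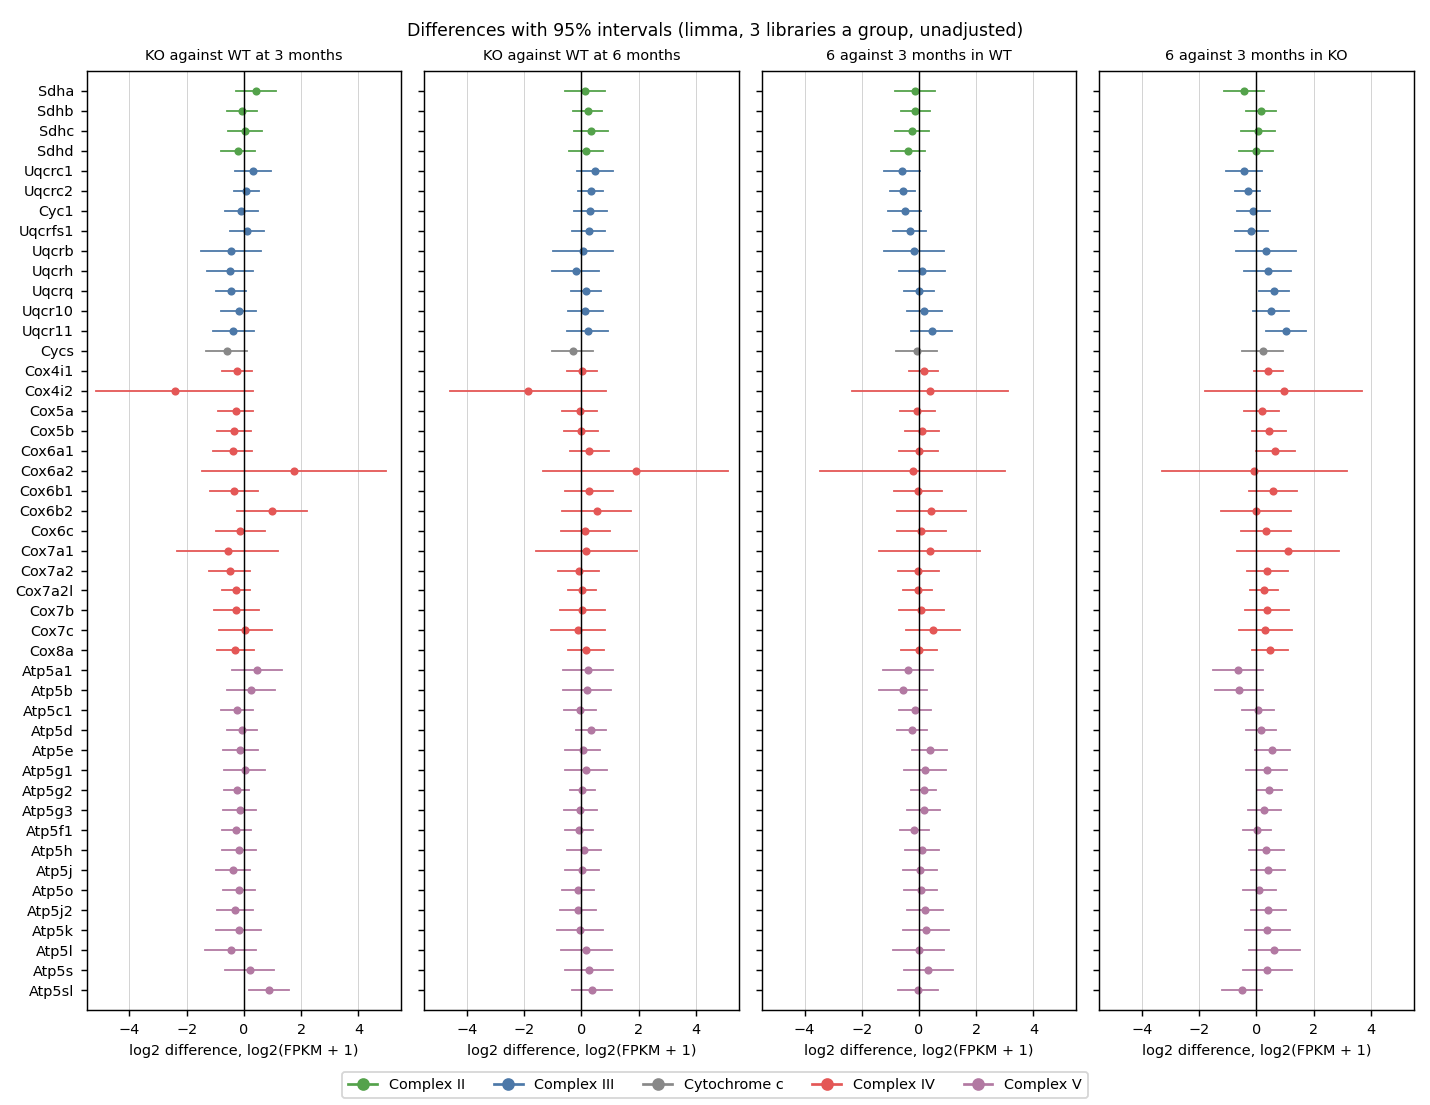
Log2 difference of each tested gene (point) with its unadjusted 95% limma interval (line), on log2(FPKM + 1), for 4 comparisons, coloured by complex. The line misses 0 for 1, 0, 1 and 3 genes from left to right, the widest lines belong to Cox4i2 and Cox6a2, and 35 of the 46 points of the right-hand panel lie above 0.

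At 3 months the KO values leaned below WT for most subunits, but not under every scaling. Most rows with a mean of at least 100 FPKM leaned the same way, by a similar median. The log2 difference was above 0 for 13 of 46 genes, against 51.2% of all rows and 307 of the 1169 rows with a mean of at least 100 FPKM. Its median was -0.20, against 0.01 over all rows and -0.18 over those 1169 rows. By complex the median was -0.02 for complex II, -0.18 for III, -0.29 for IV and -0.17 for V. Quantile normalization put 23 of 46 above 0 with a median of 0.00. Rescaling without small RNA put 18 above 0, and moved the median of all rows to 0.13. WT library 1 and WT library 2 pulled in opposite directions, with 9 of 46 above 0 and a median of -0.42 without the former and 20 of 46 and -0.06 without the latter. On the 8 libraries low in markers of other cells it was 15 of 46 and -0.15. Groups did not overlap for 2 genes that were higher in KO, Atp5sl and Uqcrc1 (5.02% of all rows were higher without overlap), and 1 that was lower, Uqcrq (5.22%).

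At 6 months the lean was the other way, and its count moved with the libraries kept. The log2 difference of KO against WT was above 0 for 33 of 46 genes, against 51.5% of all rows, with a median of 0.14, against 0.01 over all rows. Of the 1169 rows with a mean of at least 100 FPKM 523 were above 0, with a median of -0.03. Complex II and III had medians of 0.19 and 0.22, and complexes IV and V of 0.03 and 0.04. Without KO library 3 it was 14 of 46 with a median of -0.07, and without WT library 3 it was 40 of 46. With library 3 of both genotypes left out, on the 8 libraries low in markers of other cells, it was 36 of 46 with a median of 0.08. Without WT library 1 it was 23 of 46, and with array weights, which give less weight to more variable libraries, 38 of 46. Groups did not overlap for 1 gene, Uqcrc2, higher in KO, where 3.79% of all rows were higher and 3.01% lower without overlap.

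Averaged over both ages the KO values were above WT for 16 of 46 genes, against 51.1% of all rows and 375 of the 1169 rows of at least 100 FPKM. The median log2 difference was -0.06, which quantile normalization turned to 0.00 (25 of 46 above 0). The interaction of genotype and age, which asks whether the KO effect differed between ages, was above 0 for 40 of 46 genes with a median of 0.27. Over all rows 50.8% were above 0. Of the 1169 rows of at least 100 FPKM 810 were above 0, with a median of 0.15. Quantile normalization lowered the count to 30 of 46 and the median to 0.08. Rescaling without small RNA lowered them to 32 of 46 and 0.09, where the median of all rows was -0.14. The smallest adjusted limma p among the 46 for the interaction was 1, for Uqcrq, so no gene's KO effect was shown to differ between the ages.

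With age the genes of WT mice split evenly: 23 of 46 genes had a 6-month value above the 3-month value, against 51.9% of all rows, with a median log2 difference of -0.00. Of the 1169 rows with a mean of at least 100 FPKM 429 were above 0, with a median of -0.12. The count among the 46 genes ranged from 10 without 3-month WT library 1 and 11 without 6-month WT library 3 to 32 without 6-month WT library 1. It was 31 after rescaling and 30 after quantile normalization. Complex II and III had medians of -0.19 and -0.17, and complexes IV and V of 0.07 and 0.06. The groups did not overlap for 1 gene, Uqcrc2, which was lower at 6 months, where 7.81% of all rows were lower and 7.94% higher without overlap. After rescaling without small RNA 4 of 46 were higher without overlap (8.69% of all rows), Atp5e, Atp5j2, Cox4i1 and Uqcr11. The same 4 were higher after quantile normalization (7.48%). Uqcrc2 stayed lower without overlap after rescaling (4.41%) but not after quantile normalization.

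In KO mice the 6-month values leaned above the 3-month values for most subunits. The log2 difference was above 0 for 35 of 46 genes, against 50.8% of all rows and 617 of the 1169 rows of at least 100 FPKM. The median was 0.33, against 0.01 over all rows and 0.03 over those 1169 rows. Quantile normalization put 32 of 46 above 0 with a median of 0.17, and rescaling without small RNA 32 of 46 with a median of 0.25. Complex III, IV and V had medians of 0.32, 0.38 and 0.35, and complex II of 0.03. Groups did not overlap for 8 of 46 genes that were higher at 6 months (17.4%), where 6.82% of all rows and 8.81% of the rows of at least 100 FPKM were, and for 1 that was lower, Uqcrc2, where 5.98% of all rows were. The 8 were Uqcrq and Uqcr11 of complex III, Cox4i1 and Cox5b of complex IV, and Atp5e, Atp5g2, Atp5g3 and Atp5j of complex V. After rescaling without small RNA it was 12 of 46 (5.1% of all rows), and after quantile normalization 6 of 46 (6.46%). Of the 8 genes Atp5e, Cox5b, Uqcr11 and Uqcrq were higher without overlap under both. Cox4i1, Atp5g2 and Atp5j were so only after rescaling, and Atp5g3 under neither. Without 6-month KO library 3 the median was 0.16 and 31 of 46 were above 0, and without 6-month KO library 1 the median was 0.48. On the 8 libraries low in markers of other cells 33 of 46 were above 0 with a median of 0.15, and 18 of 46 were higher without overlap (24.7% of all rows). The 3-month KO libraries enter both this comparison and that of KO with WT at 3 months, so the values of these comparisons are not independent.

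Complex II has 4 subunits, all from nuclear genes, and none passed the test in any comparison. Sdha was at 97.5, 80.2 and 46.4 FPKM in 3-month WT libraries 1 to 3, 74.7, 127 and 93 in 3-month KO, 85.7, 59.9 and 52.6 in 6-month WT and 64.3, 76.6 and 72.9 in 6-month KO. The groups overlapped in every comparison of the deposited values, and 3-month KO library 2 was the highest of the 12. After rescaling without small RNA Sdha was lower at 6 months in KO without overlap (6.7% of all rows). Sdhb was at 416, 608 and 682 FPKM in 3-month WT, 487, 514 and 586 in 3-month KO, 459, 519.8 and 561 in 6-month WT and 476, 638 and 688 in 6-month KO. Its groups overlapped in every comparison of the deposited values. Of the membrane anchors, which hold the ubiquinone site, Sdhc was at 114, 180.2 and 163 FPKM in 3-month WT, 134, 139 and 194 in 3-month KO, 126, 117 and 137 in 6-month WT and 126, 151 and 218 in 6-month KO. Sdhd was at 258, 547 and 369 FPKM in 3-month WT, 289, 342 and 339.8 in 3-month KO, 315, 257 and 289 in 6-month WT and 273, 315 and 384 in 6-month KO. Both anchors peaked in single libraries, Sdhc in 6-month KO library 3 and Sdhd in 3-month WT library 2. At 6 months Sdhc was higher in KO without overlap after rescaling without small RNA (3.22% of all rows) and after quantile normalization (3.38%). For KO against WT at 6 months all 4 log2 differences were positive, from 0.13 to 0.34, and the limma adjusted p of each was 1.

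In complex III the log2 difference of 6 against 3 months in KO was negative for the core protein, cytochrome c1 and Rieske genes Uqcrc1, Uqcrc2, Cyc1 and Uqcrfs1 and positive for the 5 small subunit genes, without any passing the test. Uqcrc2 (chr7:120635176-120659524, plus strand, GRCm38), a core protein of the matrix side, was at 175, 224 and 183 FPKM in 3-month WT and 149, 129 and 116 in 6-month WT. All 6-month WT values were under all 3-month WT values, with a log2 difference of -0.56 (SE 0.20, n = 3 a group) and a limma adjusted p of 0.664. In KO it was at 195, 218 and 201 FPKM at 3 months and 159, 163 and 172 at 6 months, without overlap, with a log2 difference of -0.31 and a 95% limma interval of -0.75 to 0.13. The 6-month KO values also lay above all 6-month WT values, with a log2 difference of 0.33 (SE 0.20) and a limma adjusted p of 1. After quantile normalization or rescaling without small RNA the 6-month KO and WT groups overlapped, and after quantile normalization so did the WT age groups.

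Uqcrc1, the other core protein gene, was at 294, 263 and 275 FPKM in 3-month WT, 320.3, 426 and 298 in 3-month KO, 268, 179 and 129 in 6-month WT and 271, 305 and 195 in 6-month KO. All 3-month KO values lay above all 3-month WT values, the nearest being KO library 3 and WT library 1, and the groups overlapped after rescaling without small RNA. The limma log2 difference of 6 against 3 months in WT was -0.59 (SE 0.29, adjusted p = 0.669), and that of KO against WT at 6 months was 0.46 (SE 0.29, adjusted p = 1). Cyc1, the cytochrome c1 that hands electrons to cytochrome c, was at 362, 526 and 411 FPKM in 3-month WT, 405, 496 and 319.8 in 3-month KO, 407, 293 and 229.5 in 6-month WT and 354, 415 and 352 in 6-month KO. Its age groups overlapped in WT, with a limma log2 difference of -0.50 (SE 0.26, adjusted p = 0.687).

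The small subunit gene Uqcr11 (chr10:80402997-80406830, minus strand, GRCm38) had the smallest unadjusted p of the 46 genes for age in KO. It was at 935, 999.7 and 1481 FPKM in 3-month KO and 1766, 2084 and 3216 in 6-month KO, with no overlap. In WT it was at 899, 1856 and 1775 FPKM at 3 months and 1699, 1913 and 2315 at 6 months, where 3-month libraries 2 and 3 reached into the 6-month range. After rescaling without small RNA or quantile normalization the WT age groups did not overlap either. With age the limma log2 difference was 1.03 (SE 0.33, adjusted p = 0.745) in KO and 0.45 (SE 0.33, adjusted p = 0.774) in WT. The difference between them, 0.58 with a 95% limma interval of -0.43 to 1.60, did not pass the test.

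Uqcrq (chr11:53427922-53430831, minus strand, GRCm38), a small subunit known as ubiquinone-binding protein QP-C, was the other complex III gene with non-overlapping age groups in KO. It was at 1662, 2209 and 2039 FPKM in 3-month WT, 1565, 1423 and 1282 in 3-month KO, 1657, 2151 and 2123 in 6-month WT and 1629, 2196 and 2891 in 6-month KO. The 3-month KO libraries were the 3 lowest of the 12. The limma log2 difference from 3-month WT was -0.46 (SE 0.24, adjusted p = 0.762), and that of 6 against 3 months in KO was 0.62 (SE 0.24, adjusted p = 0.745). After quantile normalization 3-month KO and WT overlapped. Of the remaining complex III genes, Uqcrfs1, the Rieske iron-sulfur protein, spanned 173 to 317 FPKM over the 12 libraries, and Uqcrb, Uqcrh and Uqcr10 spanned 804 to 3243 FPKM, with overlapping groups in every comparison of the deposited values.

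Cycs (chr6:50562563-50566538, minus strand, GRCm38) stood lower in KO means at both ages, with overlap. It was at 286, 664 and 427 FPKM in 3-month WT and 339, 302 and 223 in 3-month KO, where WT library 1 lay inside the KO range. At 6 months it was at 356, 348 and 554 FPKM in WT mice and 268, 406 and 336 in KO, and KO library 2 lay inside the WT range. Averaged over both ages the limma log2 difference was -0.46 (SE 0.23, adjusted p = 0.783). Its mean was 459 ± 191 FPKM (SD, n = 3) in 3-month WT and 288 ± 59.4 FPKM (SD, n = 3) in 3-month KO. Cycs has annotated pseudogenes of similar sequence, as do Atp5c1, Atp5k, Atp5l and Uqcrh, and reads shared with them could be split by the counting.

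Complex IV is built around mitochondrially encoded subunits, with nuclear subunits that regulate it and hold it together. Its most even genes were Cox7a2l, at 174 to 273 FPKM, and Cox4i1, the isoform of subunit 4 found in most tissues. Cox4i1 was at 1404, 2034 and 1821 FPKM in 3-month WT, 1376, 1605 and 1435 in 3-month KO, 1588, 1733 and 2643 in 6-month WT and 1829.6, 1886 and 2169.5 in 6-month KO. All 6-month KO values were above all 3-month KO values, with a limma log2 difference of 0.41 and a 95% interval of -0.10 to 0.93. After quantile normalization these groups overlapped. Cox5b, a zinc-binding subunit, was at 905, 894 and 997 FPKM in 3-month KO and 1055, 1322 and 1462 in 6-month KO. Its KO age groups did not overlap under any of the 3 scalings. Its limma log2 difference was 0.45 with a 95% interval of -0.15 to 1.04. Cox6a1, the common isoform of subunit 6A, was at 1577, 2493 and 2446 FPKM in 3-month WT, 1527, 1551 and 1779 in 3-month KO, 1854, 1972 and 2561 in 6-month WT and 1778, 2273 and 4159 in 6-month KO. The 6-month KO mean of 2737 ± 1256 FPKM (SD, n = 3) rested on library 3, which was the highest of the 12. The limma log2 difference of 6 against 3 months in KO was 0.67 (SE 0.31, adjusted p = 0.745). Without 6-month KO library 3 it was 0.32. Cox6c, the most abundant complex IV gene, was at 1338, 2567 and 2566 FPKM in 3-month WT, 1798, 1789 and 2119 in 3-month KO, 1705, 1794 and 3404 in 6-month WT and 1675, 1912 and 4282 in 6-month KO, with the highest values in library 3 of both 6-month groups.

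The isoforms of complex IV known from particular tissues had uneven levels, below that of the common isoform in every library. Cox4i2 (chr2:152754173-152765037, plus strand, GRCm38), the isoform of subunit 4 known from lung and from hypoxic cells, was at 199, 79.9 and 62.1 FPKM in 3-month WT and 103, 17.4 and 2.43 in 3-month KO. At 6 months it was at 119.6, 221 and 83.6 FPKM in WT mice and 22.4, 247 and 7.13 in KO. The 4 lowest libraries were all KO, but 3-month KO library 1 lay within the 3-month WT range and 6-month KO library 2 was the highest of the 12, so the genotypes overlapped at both ages. Averaged over both ages its limma log2 difference was -2.14 (SE 0.89, adjusted p = 0.783), with -2.43 at 3 months (SE 1.25, adjusted p = 0.762) and -1.86 at 6 months (SE 1.25, adjusted p = 1). As a share of the FPKM of Cox4i1 and Cox4i2 together it ran from 0.169% in 3-month KO library 3 to 12.4% in 3-month WT library 1. The share was 6.49% ± 5.12 (SD, n = 3) in 3-month WT, 2.74% ± 3.71 in 3-month KO, 7.13% ± 4.13 in 6-month WT and 4.37% ± 6.25 in 6-month KO.

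Cox6a2 (chr7:128205435-128206387, minus strand, GRCm38), the subunit 6A isoform of heart and skeletal muscle, was at 35.4 FPKM in KO library 3 of 3 months and at 63.7 FPKM in that of 6 months. In the other 10 libraries it was between 0 and 1.67 FPKM. Even in these 2 libraries it made up only 1.95% and 1.51% of the summed FPKM of Cox6a1 and Cox6a2. The 5 muscle markers Ckm, Myh6, Myh7, Acta1 and Tnnt3 summed to at most 0.605 FPKM in any library. The same 2 libraries held the highest sums of the 8 oocyte markers, 55.5 and 208 FPKM against 1.35 to 16.7 FPKM elsewhere, and of the 8 theca and stromal markers, 1166 and 1426 FPKM against at most 150 FPKM. Their 4 luteal markers summed to 9027 and 13991 FPKM, and small RNA was also highest there. The part of these in the Cox6a2 values was not tested. Cox6a2 overlaps Itgad on the other strand, and no source used here gives the strand setting of the counting.

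Cox6b2, the testis isoform of subunit 6B, was at 8.05, 11.9 and 18.8 FPKM in 3-month WT, 20.9, 16.8 and 43.8 in 3-month KO, 20.4, 10.9 and 21.4 in 6-month WT and 13.5, 17.6 and 62.8 in 6-month KO. Its 2 highest values were in the same KO libraries 3 as those of Cox6a2. The limma log2 difference of KO against WT averaged over both ages was 0.75 (SE 0.39, adjusted p = 0.783). It was 0.428% to 2.28% of Cox6b1 and Cox6b2 together. Its partner Cox6b1 was at 1109, 2773 and 2163 FPKM in 3-month WT, 1224, 1404 and 1879 in 3-month KO, 1544, 1657 and 2405 in 6-month WT and 1543, 1874 and 3694 in 6-month KO, with overlap in every comparison.

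Cox7a1, the heart and muscle isoform of subunit 7A, followed a different set of libraries. It was at 17.8, 22 and 143 FPKM in 6-month WT and 25.9, 26 and 121 in 6-month KO, so that library 3 of both stood apart. At 3 months it was at 31.4, 21.1 and 39.2 FPKM in WT mice and 22, 8.45 and 39.9 in KO. It made up 0.885% to 7.86% of the summed FPKM of Cox7a1 and Cox7a2. Cox7a2, the liver-type isoform, was at 796, 1873 and 1295 FPKM in 3-month WT, 915, 946 and 784 in 3-month KO, 955, 1094 and 1743 in 6-month WT and 907, 1178 and 1416 in 6-month KO. Cox8a, the common isoform of subunit 8, was at 1391 to 3247 FPKM, while Cox8b, its muscle isoform, was listed at 0 in 11 libraries and at 4.02 FPKM in 6-month KO library 3. Cox8c, the testis isoform, was at most 0.774 FPKM, and Cox7b2 at most 0.189 FPKM beside Cox7b at 284 to 715 FPKM.

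**Figure D4:**
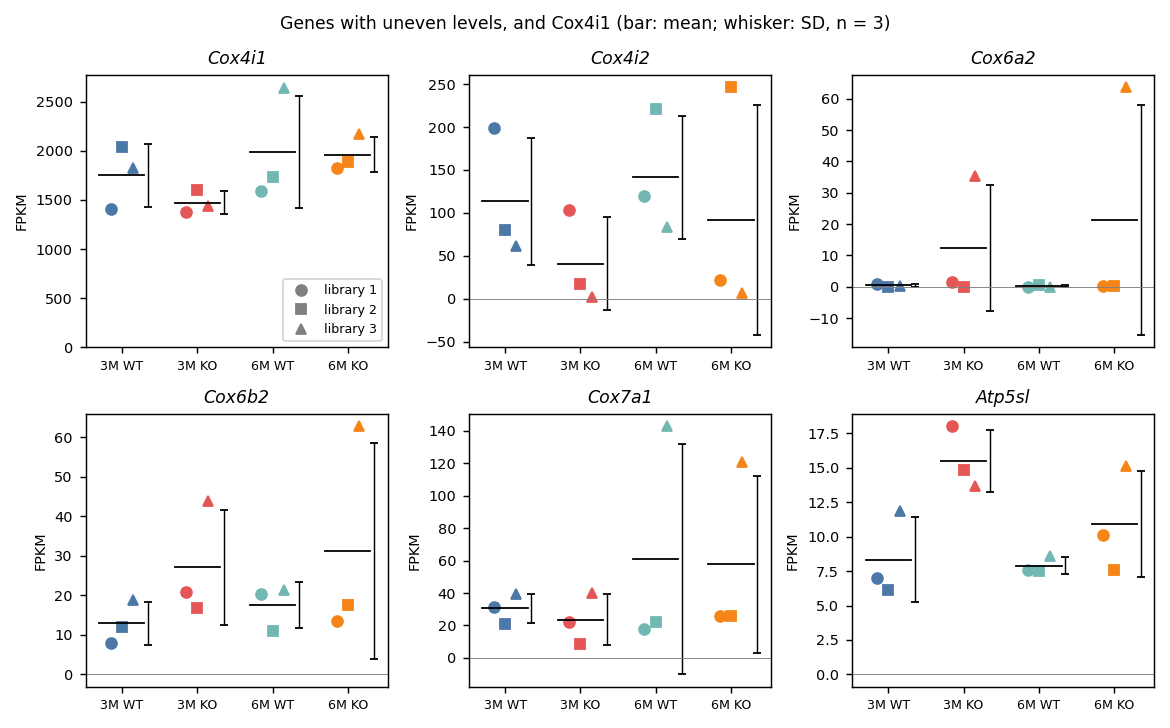
FPKM of Cox4i1, of 4 uneven complex IV isoforms and of Atp5sl in each library (marker shape by number), with the mean as a bar and the SD as a whisker beside it (n = 3 a group). The vertical scales differ, and whiskers that pass below 0 reflect 1 high library. Cox6a2 and Cox6b2 peak in library 3 of both KO groups, Cox7a1 in library 3 of both 6-month groups, and Cox4i2 is spread within every group.

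The common and the tissue isoforms also differed in the DNA before their start sites. The 250 bases before the RefSeq start (GRCm38.p6) are shown for the pairs of subunits 7A and 8, because each pairs a gene of over 1000 FPKM with one that was low or listed at 0 in most libraries. They are written on the gene's strand, and capitals mark CG dinucleotides.
Cox7a2, chr9:79759854-79760103, minus strand: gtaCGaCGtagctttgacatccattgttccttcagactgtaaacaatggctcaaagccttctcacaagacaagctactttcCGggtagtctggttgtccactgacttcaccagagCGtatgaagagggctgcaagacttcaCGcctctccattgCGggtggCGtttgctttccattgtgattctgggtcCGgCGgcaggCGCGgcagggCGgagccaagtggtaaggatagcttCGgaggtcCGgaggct
Cox7a1, chr7:30183921-30184170, plus strand: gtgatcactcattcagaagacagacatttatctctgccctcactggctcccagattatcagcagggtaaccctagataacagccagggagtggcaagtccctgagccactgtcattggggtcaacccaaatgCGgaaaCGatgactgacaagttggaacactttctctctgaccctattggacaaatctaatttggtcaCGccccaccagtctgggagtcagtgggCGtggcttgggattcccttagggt
Cox8a, chr19:7217617-7217866, minus strand: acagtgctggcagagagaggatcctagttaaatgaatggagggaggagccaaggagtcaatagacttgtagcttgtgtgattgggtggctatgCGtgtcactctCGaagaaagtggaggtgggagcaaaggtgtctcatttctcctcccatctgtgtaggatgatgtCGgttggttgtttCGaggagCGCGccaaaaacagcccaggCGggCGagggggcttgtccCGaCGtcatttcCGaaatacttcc
Cox8b, chr7:140900447-140900696, minus strand: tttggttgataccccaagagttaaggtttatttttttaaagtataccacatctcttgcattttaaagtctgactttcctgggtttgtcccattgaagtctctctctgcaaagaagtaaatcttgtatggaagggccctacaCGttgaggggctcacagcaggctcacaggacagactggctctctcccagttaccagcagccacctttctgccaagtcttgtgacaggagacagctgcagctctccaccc
The common isoforms held more CG dinucleotides, 14 in Cox7a2 against 4 in Cox7a1 and 11 in Cox8a against 1 in Cox8b. In the same window Cox6b1 held 14 and Cox6b2 held 8.

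Of the 49 genes 38 matched RefSeq promoters, 42 in all. These held a median of 14 CG dinucleotides in the 250 bases, against 6 over 32851 promoters, and 71.4% held at least 10, against 37.8%. The letters CCGGAAG, the core that ETS factors such as GABP bind, were found on either strand in 9 of the 38 genes, Atp5e, Atp5h, Atp5j, Atp5l, Cox6a1, Cox6b1, Sdhd, Uqcr11 and Uqcrh, and in 6.91% of all promoters. GCATGCG, from the middle of the palindrome that NRF-1 binds, was found in 7 of 38, Atp5g2, Atp5j, Atp5k, Atp5l, Cox6a1, Cycs and Sdhb, and in 3.02% of all promoters. CCAAT was found in 22 of 38 and in 33.8% of all promoters, and TATAAA in 2 of 38, Atp5l and Cox7b2, and in 12.4%. None of these motifs contains another, and a match is a description of letters only.

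In complex V the F1 head genes did not share 1 pattern. Atp5b was at 1565, 1299 and 897 FPKM in 3-month WT, 1379, 2151 and 1056 in 3-month KO, 1254, 865 and 534 in 6-month WT and 1105, 1255 and 646 in 6-month KO. Library 3 was the lowest of each group, and the limma log2 difference of 6 against 3 months in WT was -0.55 (SE 0.38, adjusted p = 0.765). Atp5d, the delta subunit, was at 317, 486 and 359 FPKM in 3-month WT, 366, 382 and 342 in 3-month KO, 381, 360.3 and 241 in 6-month WT and 358, 466 and 398 in 6-month KO. Its groups overlapped in every comparison, and its limma log2 difference of KO against WT at 6 months was 0.33 (SE 0.24, adjusted p = 1). Atp5e was at 1362, 1303 and 1239.9 FPKM in 3-month KO and 1654, 1877 and 2224 in 6-month KO without overlap, and at 952, 1815 and 1669.6 in 3-month WT and 1442, 1809.5 and 2433 in 6-month WT with overlap. Its limma log2 difference with age in KO was 0.55 with a 95% interval of -0.06 to 1.16. After rescaling without small RNA or quantile normalization the WT age groups of Atp5e did not overlap either.

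Subunit c of the rotating membrane ring is made from 3 genes that encode the same mature protein, and their balance was steady. Atp5g3 supplied 63.5% to 72.5% of their summed FPKM, Atp5g2 14.7% to 19.4% and Atp5g1 11.3% to 20.2%. Atp5g3 (chr2:73908447-73911326, minus strand, GRCm38) was at 2313, 3507 and 4021 FPKM in 3-month WT, 2319, 3376 and 3054 in 3-month KO, 3042, 3155 and 4834 in 6-month WT and 3399.5, 3449 and 3617 in 6-month KO. Its 6-month KO values lay just above all 3-month KO values, but the groups overlapped after rescaling without small RNA and after quantile normalization. Atp5g2 (chr15:102662864-102672352, minus strand, GRCm38) was at 647, 973 and 888 FPKM in 3-month WT, 661, 754 and 667 in 3-month KO, 892, 895 and 983 in 6-month WT and 902, 1016 and 916 in 6-month KO. Its age groups did not overlap in KO, except after quantile normalization, and its limma log2 difference was 0.44 (SE 0.20, adjusted p = 0.745). Atp5g1 was at 378, 1041 and 779 FPKM in 3-month WT, 609, 658 and 808 in 3-month KO, 726, 774 and 852 in 6-month WT and 714, 827 and 1145 in 6-month KO. Its groups overlapped in every comparison of the deposited values. After quantile normalization it was higher in KO than in WT at 6 months without overlap (3.38% of all rows).

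Atp5j, whose product is coupling factor 6 of the stalk, was at 1521, 1766 and 1643 FPKM in 3-month KO and 1984, 2218 and 2365 in 6-month KO without overlap, with a limma log2 difference of 0.41 and a 95% interval of -0.18 to 1.00. After quantile normalization these KO age groups overlapped. Atp5j lies opposite Gabpa on the other strand. In all 10 of the 49 genes overlap another coding gene, among them Uqcrc2 (Pdzd9), Cox4i1 (Emc8) and Cox6c (Vps13b), and reads of overlapping genes cannot be told apart without strand. The other stalk and membrane genes Atp5f1, Atp5h, Atp5o, Atp5j2, Atp5k and Atp5l, with the gamma subunit gene Atp5c1, spanned 350 to 2713 FPKM. Their groups overlapped in every comparison of the deposited values.

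Atp5sl (chr7:25619414-25625551, plus strand, GRCm38) carries the complex V prefix but is now named Dmac2, a factor of complex I assembly. It was the one gene of the 46 with an unadjusted p under 0.05 for KO against WT at 3 months. It was at 7.0, 6.16 and 11.8 FPKM in 3-month WT and 18, 14.8 and 13.6 in 3-month KO, with no overlap. At 6 months it was at 7.56, 7.52 and 8.61 FPKM in WT mice and 10.2, 7.55 and 15.1 in KO, where KO library 2 lay inside the WT range. By limma the log2 difference was 0.86 at 3 months (SE 0.32, adjusted p = 0.69), 0.38 at 6 months (SE 0.32, adjusted p = 1) and 0.62 averaged (SE 0.23, adjusted p = 0.783). The 3-month groups stayed apart after rescaling and after quantile normalization, and the adjusted p over the alternatives at 3 months ran from 0.1 to 1. Atp5s, now named Dmac2l, was at 12 to 34.7 FPKM with overlapping groups.

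Genes with long and with short coding sequences moved apart from library to library. The split at 750 coding nucleotides was chosen after the values were seen, and it put 11 of the 46 genes, among them Sdha, Uqcrc1, Uqcrc2, Cyc1, Atp5a1 and Atp5b, in the long class and 35 in the short class. The median deviation of the long minus the short genes was 0.45, -0.06 and -0.03 log2 units in 3-month WT libraries 1 to 3 and 0.47, 0.66 and 0.23 in 3-month KO. It was -0.01, -0.28 and -1.05 in 6-month WT and 0.17, -0.07 and -0.54 in 6-month KO. All 3-month KO values were thus positive and all 6-month WT values negative, and library 3 was the lowest of each 6-month group. Among the other genes of at least 100 FPKM, 398 long and 703 short, the same quantity was 0.47, -0.07 and -0.05 in 3-month WT, 0.30, 0.47 and 0.01 in 3-month KO, 0.10, -0.16 and -0.52 in 6-month WT and 0.04, -0.03 and -0.51 in 6-month KO. The sign was the same in both gene sets in 11 of 12 libraries, all except 6-month WT library 1. Among all other genes tested with a coding length, 8119 long and 2505 short, it matched that of complexes II to V in 8 of 12 libraries, all except 3-month KO library 3, 6-month WT libraries 1 and 2 and 6-month KO library 2. The part of this length difference in the values given for Uqcrc1, Uqcrc2, Atp5b, Uqcr11 or Uqcrq was not tested.

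**Figure D5:**
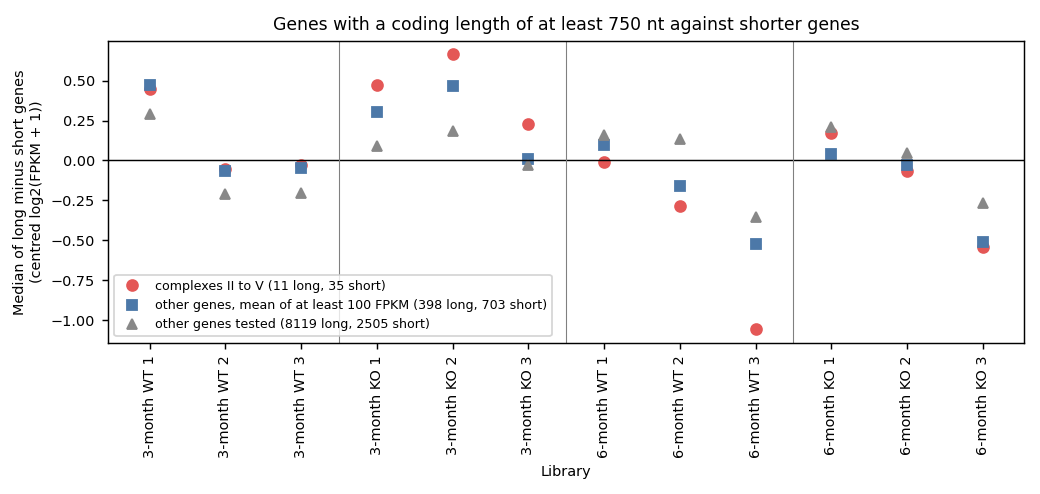
Median deviation from the 12-library mean of genes with at least 750 coding nucleotides minus that of shorter genes, in log2(FPKM + 1), for each library: circles for the 46 genes of complexes II to V, squares for other genes of at least 100 FPKM and triangles for all other genes tested. Circles and squares have the same sign in 11 of 12 libraries and circles and triangles in 8 of 12, and the lowest circle is 6-month WT library 3 at -1.05.

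The other genes of the pathway were counted as fixed lists. The complex I list was the 45 symbols starting with Nduf, which take in assembly factors such as Ndufaf3 and Ndufaf5 as well as subunits. Of these, 0 of 45 passed the adjusted limma threshold in any comparison. An unadjusted limma p under 0.05 was reached by 4 of 45 with age in KO (6.48% of all rows), 1 with age in WT (7.44%) and 0 between genotypes or for the interaction. The log2 difference was above 0 for 12 of 45 (median -0.15) for the genotype comparison at 3 months, 32 (0.10) at 6 months, 33 (0.13) with age in WT and 36 (0.40) with age in KO, against 51.2%, 51.5%, 51.9% and 50.8% of all rows. The medians of complexes II to V in the same comparisons were -0.20, 0.14, -0.00 and 0.33. Ndufs1, a core subunit of the electron input arm, had the smallest unadjusted limma p of the list for age in KO. It was at 80.3, 97.4 and 56.2 FPKM at 3 months and 41.9, 46.8 and 31.8 at 6 months, lower without overlap (5.98% of all rows). Its limma log2 difference was -0.92 (SE 0.28) with an adjusted p of 0.745.

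Of 42 assembly factors and the ATP synthase inhibitor 37 were in the table and tested, and 0 of 37 passed. An unadjusted limma p under 0.05 was reached by 5 of 37 for KO against WT at 3 months (6.8% of all rows), 0 at 6 months (1.22%), 6 averaged over both ages (5.96%), 1 with age in WT (7.44%), 2 with age in KO (6.48%) and 1 for the interaction (2%). The log2 difference was above 0 for 24 of 37 (median 0.12) for the genotype comparison at 3 months, 26 (0.14) at 6 months, 22 (0.12) with age in WT and 22 (0.06) with age in KO. Of all rows 51.2%, 51.5%, 51.9% and 50.8% were above 0 in these comparisons. Lrpprc, which stabilises mitochondrial mRNAs and is needed for complex IV, was at 9.75, 7.38 and 7.19 FPKM in 3-month WT and 14.3, 23.1 and 19.1 in 3-month KO. Its KO values were higher without overlap (5.02% of all rows), with a limma log2 difference of 1.11 (SE 0.27, adjusted p = 0.628). It was at 10.7, 10.8 and 8.74 FPKM in 6-month WT and 14.1, 10.3 and 11 in 6-month KO, with overlap. Sdhaf1, which helps place the iron-sulfur clusters of complex II, was at 6.36, 8.54 and 22 FPKM in 3-month WT and 30.4, 18 and 38.8 in 3-month KO, where WT library 3 lay inside the KO range, with a limma log2 difference of 1.29 (SE 0.42, adjusted p = 0.664). Higd1a, a complex IV partner induced by hypoxia, was at 239, 275 and 288 FPKM in 6-month WT and 90.6, 221 and 184 in 6-month KO. Its KO values were lower without overlap (3.01% of all rows), with a limma log2 difference of -0.78 (SE 0.39, adjusted p = 1).

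Of 9 regulators of respiratory genes 6 were tested and 0 passed, with 2 at an unadjusted limma p under 0.05 for KO against WT at 3 months (6.8% of all rows), 2 averaged over both ages (5.96%) and 0 in the other comparisons. Gabpa, the DNA-binding subunit of GABP, was at 15.5, 17.6 and 9.20 FPKM in 3-month WT and 8.38, 6.96 and 7.16 in 3-month KO. The KO values were all below the WT values (5.22% of all rows were lower without overlap), with a limma log2 difference of -0.79 (SE 0.30, adjusted p = 0.702). Its partner Gabpb1 was at 40.7, 42.3 and 23.3 FPKM in 3-month WT and 22.7, 27.1 and 9.06 in 3-month KO, with overlap and a limma log2 difference of -0.90 (SE 0.38, adjusted p = 0.73). Tfam, which packages and transcribes mitochondrial DNA, was at 20.3, 18.7 and 13.2 FPKM in 3-month KO and 12.8, 10.8 and 13.9 in 6-month KO, with a limma log2 difference of -0.43 (SE 0.27, adjusted p = 0.761).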

How the data were processed

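The deposited table holds FPKM, which the authors made on GRCm38/mm10 with Cufflinks 1.2.1 after TopHat2 2.0.10 and Bowtie2 2.1.0, and with SAMtools 0.1.18, cutadapt and FastQC, per the submitters' processing notes. Per the labels, Smart-Seq2 cDNA of 100 cells became Nextera XT libraries, read as 75 bp pairs. The gene annotation and strand setting are not stated in the sources used here, and without counts the error of a single value is unknown. FPKM divides by a total that small RNA entries can fill, which could lower the other genes of that library. A share of the FPKM sum is not a share of fragments, since FPKM is a level per length. The FPKM sum without small RNA was 634104 in 3-month WT library 1, the lowest of its group. It was 687558 in 3-month KO library 3, between the other libraries of its group, and 854693 in 6-month KO library 3, the highest of its group. Whether small RNA lowered the other genes was not tested. Depth was read from values under 0.2 FPKM, with all 66 library pairs within 0.1 log2 of the fit.

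The test used 11196 rows, those that reached 1 FPKM in 3 or more libraries, as log2(FPKM + 1) with limma 3.58.1 in R 4.3.3 (trend, 4 group means over 12 libraries, 8 residual and 3.9 prior degrees of freedom). P-values are 2-sided and adjusted by Benjamini and Hochberg over all rows, with a threshold of 0.05, and intervals are at 95%. The code was tested on simulated data. Other steps used Python 3.11.15, matplotlib 3.10.9, pandas 2.3.3 and numpy 2.4.6. Coordinates and coding lengths are from GENCODE M21 on GRCm38, where all 49 genes matched, and promoters from RefSeq.

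The genes, lists and alternatives were chosen with earlier results of these data known. Values per library are given for the 4 genes with the smallest unadjusted p of each comparison, all complex II genes, the highest and lowest of each complex, Cycs and the isoform sets, with others added after their values were seen. Listed pathway genes are named from the 3 with the smallest unadjusted p of each comparison. Alternatives were pseudocounts of 0.1 and 10, no filter and a filter of 5 FPKM, rescaling without small RNA, quantile normalization, only the libraries compared, array weights, a replicate block, leaving out each library, and, added after seeing the data, only the 8 libraries with an other-cell score of at most 1.

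Nothing in the labels says that equal library numbers, 1 to 3, mark an animal, a litter or a day shared between groups. Library deviations from the group mean were compared between equal numbers. Their correlations were 0.158, 0.373 and 0.465 for the genotypes at 6 months and 0.114, 0.394 and 0.653 for age in KO. They were 0.0946, -0.0185 and 0.205 for the genotypes at 3 months and 0.0319, 0.0303 and 0.278 for age in WT. In each comparison only library 3, which was high in other-cell markers in every group, was the best match of its own number. These correlations cannot settle whether the numbers mark pairs. The main test did not take the numbers as pairing in any comparison, and a replicate block entered only as an alternative.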

Additional observations from a re-analysis of the deposited data

How the results depend on the processing

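With 0 of 46 genes called in each of the 6 comparisons, limma also called 0 in each of 106 combinations of a comparison with an alternative setting. Most fits gave several comparisons, so the 106 are not independent. In all of them the median log2 difference of the 46 genes moved by less than the spread between libraries. That spread, the pooled within-group SD of the library medians (0.08 to 0.36 by group), is a wide limit. A median could change sign and still count as unmoved, as at 6 months (0.14, and -0.07 without KO library 3). The limit thus says little about direction. The smallest adjusted p over the alternatives was 0.1 for KO against WT at 3 months, 0.27 at 6 months, 0.287 averaged over both ages, 0.121 for age in WT, 0.251 for age in KO and 0.573 for the interaction. With the replicate block in the fit the count was 0 of 46 in every comparison and no call changed; the unadjusted p was under 0.05 for 10 of 46 genes with age in KO in place of 3, and for 9.54% of all rows in place of 6.48%. Leaving out each library in turn, the median ran from -0.42 to -0.06 for KO against WT at 3 months, from -0.07 to 0.23 at 6 months, from -0.19 to 0.02 averaged, from -0.22 to 0.22 for age in WT, from 0.16 to 0.48 for age in KO and from 0.14 to 0.50 for the interaction, and the count called stayed at 0. The medians of complexes III and V moved by more than the spread in 4 cases: complex III had a median of -0.46 for age in WT without 3-month WT library 1, and 0.64 or -0.06 for age in KO without 6-month KO library 1 or 3, and complex V had 0.46 for the interaction without 3-month WT library 1. Where a group is left with 2 libraries its spread is assumed to be that of the other groups.

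A group of 3 mice, FPKM without counts and other-cell markers in library 3 of every group limit what can be detected: the median half-width of the intervals was 0.63 on the log2 scale. Values under a few FPKM, such as those of Cox8b, Cox8c and Cox7b2, rest on few reads.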
